A study of Mus musculus with 14 samples.

Results

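Of the Ring1b peaks called at promoters on mouse chromosomes 1 to 19, 1831 were listed in a single replicate. In replicate 1, 1498 of 3455 promoter peaks overlapped no peak of replicate 2 (43.4%, 95% Wilson interval 41.7% to 45.0%). In replicate 2, 333 of 2301 overlapped no peak of replicate 1 (14.5%, 13.1% to 15.97%). The peaks were chosen by the absence of any overlap of 1 bp with the other replicate's list and by the authors' location class "promoter". They are set beside the 1957 replicate 1 and 1968 replicate 2 promoter peaks that were found in both replicates. A one-replicate peak has a value in 1 library only, and the other list gives no reads there, so the lack of a peak is not a lack of reads.

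Ring1b is the ubiquitin ligase subunit of Polycomb repressive complex 1 (PRC1), which places a single ubiquitin on histone H2A (the mark H2AK119ub). Polycomb repressive complex 2 methylates histone H3 (the mark H3K27me3), and both marks commonly lie together over silent genes that steer other cell lineages. In epidermis, Polycomb proteins are known for keeping such genes, among them regulators of Merkel cells, silent in basal progenitors. PRC1 also exists in variant forms, some of which sit at promoters of active genes or, with Pcgf6, E2f6, Mga and Max, at germline genes.

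The cells were epidermal progenitors from the back skin of newborn (postnatal day 0) mice carrying the reporters Krt14-RFP and Krt10-H2B-GFP, sorted for high Krt14-RFP, for Sca1+ and against Krt10-H2B-GFP. All groups used here share this genotype, age and sort: Ring1b chromatin came from 6000000 cells, H2AK119ub and H3K27me3 chromatin from 400000 cells, with 2 replicates each. Peaks were listed by the authors for each replicate, with a maximum height (a coverage value) and whole-number ChIP and input read counts. Whether the replicates are separate animals is not stated in the labels, so any spread between them may be technical. RNA was not measured in these lists, so the identity of the sorted cells could not be checked against markers.

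The Ring1b lists held 4452 and 3058 peaks in replicates 1 and 2, with 1093268 and 786331 ChIP reads inside them. Reads inside peaks are not library depth, for which the sources used here give no value. The lowest height in the replicate 1 list was 13, and in the replicate 2 list 11. The H2AK119ub lists held 3800 and 5712 peaks and the H3K27me3 lists 6040 and 3124.

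Promoters of 6 member genes are given as examples and do not stand for the whole class. Micu2 and Dhx40 carry the highest peaks of replicate 1 alone, Tdrd1 is a germline gene, and Adnp carries the third-highest peak of replicate 2 alone. Igsf11 and Gdf10 are among the highest members whose peaks also met both histone marks. Each sequence runs from 250 bases before to 50 bases after the annotated start, 5′ to 3′, from RefSeq on GRCm38.p6, and capitals mark every CpG dinucleotide.
Micu2 (chr14:57999213-57999512, minus strand): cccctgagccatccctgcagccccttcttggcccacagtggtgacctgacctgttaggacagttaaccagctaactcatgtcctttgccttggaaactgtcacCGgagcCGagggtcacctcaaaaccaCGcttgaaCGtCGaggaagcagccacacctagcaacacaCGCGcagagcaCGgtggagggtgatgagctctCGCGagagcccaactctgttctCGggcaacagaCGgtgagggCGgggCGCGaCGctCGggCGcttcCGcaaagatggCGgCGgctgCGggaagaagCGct
Dhx40 (chr11:86807611-86807910, minus strand): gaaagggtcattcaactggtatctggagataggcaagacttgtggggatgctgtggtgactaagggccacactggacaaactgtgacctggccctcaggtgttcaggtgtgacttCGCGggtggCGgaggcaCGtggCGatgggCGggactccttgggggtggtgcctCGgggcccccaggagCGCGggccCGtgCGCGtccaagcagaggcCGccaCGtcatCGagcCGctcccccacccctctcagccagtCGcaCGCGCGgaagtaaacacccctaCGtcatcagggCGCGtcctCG
Tdrd1 (chr19:56826025-56826324, plus strand): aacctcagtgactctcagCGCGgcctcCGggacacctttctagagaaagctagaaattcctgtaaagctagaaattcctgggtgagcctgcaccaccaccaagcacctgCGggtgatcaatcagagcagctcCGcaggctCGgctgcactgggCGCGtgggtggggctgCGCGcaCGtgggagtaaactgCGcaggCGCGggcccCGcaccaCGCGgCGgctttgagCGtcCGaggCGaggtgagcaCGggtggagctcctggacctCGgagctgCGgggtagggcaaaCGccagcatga
Igsf11 (chr16:38902095-38902394, plus strand): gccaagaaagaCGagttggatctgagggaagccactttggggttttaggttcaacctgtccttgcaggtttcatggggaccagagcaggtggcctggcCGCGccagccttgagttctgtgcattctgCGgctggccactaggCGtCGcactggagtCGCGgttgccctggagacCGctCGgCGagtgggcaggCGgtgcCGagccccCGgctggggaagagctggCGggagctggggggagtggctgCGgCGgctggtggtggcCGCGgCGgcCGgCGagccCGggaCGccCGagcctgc
Adnp (chr2:168207063-168207362, minus strand): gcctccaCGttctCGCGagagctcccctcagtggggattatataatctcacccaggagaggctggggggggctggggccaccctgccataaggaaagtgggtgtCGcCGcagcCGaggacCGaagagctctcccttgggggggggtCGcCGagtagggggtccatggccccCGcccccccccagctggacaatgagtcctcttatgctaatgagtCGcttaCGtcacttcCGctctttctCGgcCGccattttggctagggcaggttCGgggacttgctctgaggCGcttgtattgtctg
Gdf10 (chr14:33923337-33923636, plus strand): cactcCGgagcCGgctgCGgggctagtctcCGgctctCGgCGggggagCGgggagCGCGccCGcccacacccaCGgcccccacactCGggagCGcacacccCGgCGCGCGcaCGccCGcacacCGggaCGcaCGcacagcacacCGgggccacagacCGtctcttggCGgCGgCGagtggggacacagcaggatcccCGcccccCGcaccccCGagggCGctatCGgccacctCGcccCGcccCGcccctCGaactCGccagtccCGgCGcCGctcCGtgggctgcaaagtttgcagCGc

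These promoters held 23 (Micu2), 24 (Dhx40), 25 (Tdrd1), 25 (Igsf11), 17 (Adnp) and 42 (Gdf10) CpGs. The median over 16456 autosomal protein-coding promoters of the same table was 14, with quartiles of 4 and 25. Each of 5 motifs was searched on both strands. CACGTG, in 7.96% of the 16456 promoters, occurred in the Tdrd1 and Dhx40 windows. TTCCCGC, in 6.11% of them, occurred in that of Micu2. The 6 windows held no CCGGAAG, which 12.2% of all promoters held, no CCAAT, which 38.9% held, and no TATAAA, which 13.5% held. No matches overlapped. Counted from the start site, with negative values upstream, the middle of the peak lay at 82 bp (Tdrd1), 505 bp (Igsf11), -76 bp (Dhx40), -110 bp (Micu2), -277 bp (Gdf10) and -485 bp (Adnp). The peaks covered the whole window at Micu2, Dhx40, Tdrd1 and Gdf10, 239 of its 300 bases at Igsf11, and 23 at Adnp, so most of the Adnp sequence shown lies outside its peak. A comparison of CpG content, motifs or distance over whole classes is void, because the table gave a promoter for only 1192 of 1498 and 255 of 333 one-replicate peaks, and 1494 of 1957 and 1490 of 1968 peaks found in both, all under 80%.

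The one-replicate peaks lay near the floor of each list. Their median height was 15 in replicate 1 (quartiles 14 and 18, range 13 to 63), against 22 (17 and 32, 13 to 255) for replicate 1 peaks found in both. In replicate 2 it was 13 (12 and 14, 11 to 202), against 18 (14 and 25, 11 to 239). Both classes began at the same lowest height, so their heights overlapped in each replicate. These heights follow from how the peaks were chosen and carry no test.

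**Figure D1:**
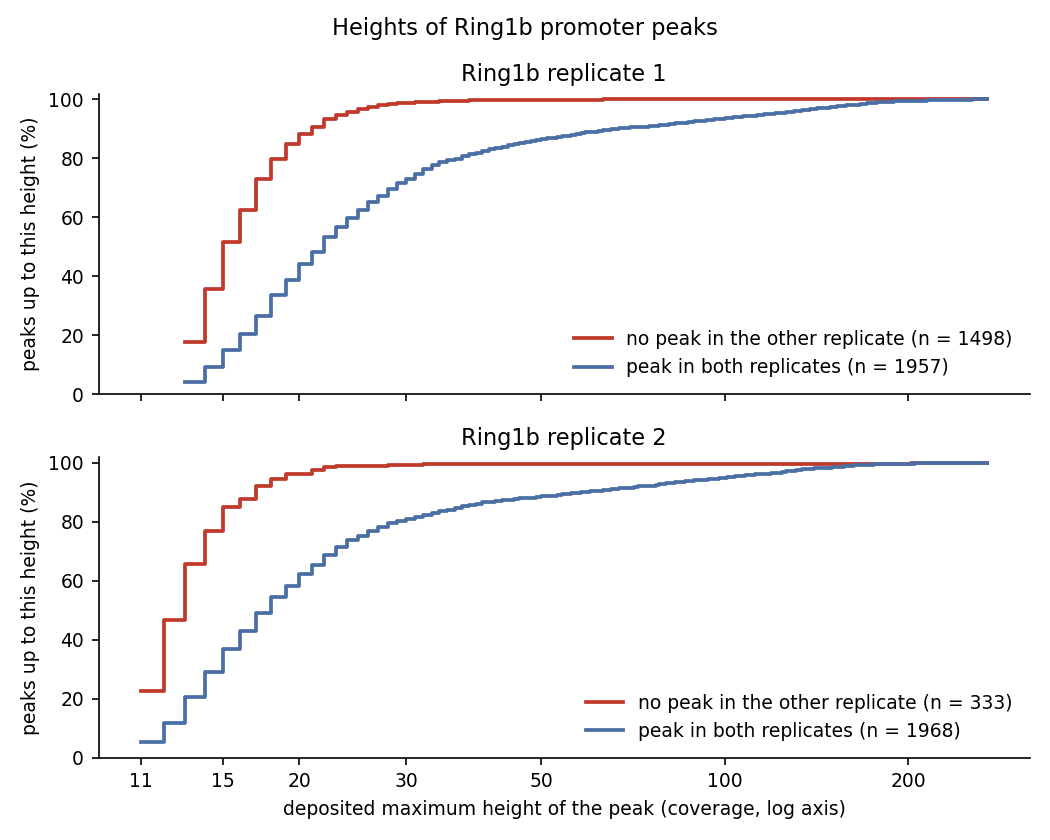
Cumulative share of Ring1b promoter peaks (vertical axis, percent) up to a given deposited maximum height (horizontal axis, coverage, log scale), per replicate. Red lines are peaks with no peak in the other replicate and blue lines peaks found in both; medians are 15 against 22 in replicate 1 and 13 against 18 in replicate 2.

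Read counts were lower too. Median ChIP reads per one-replicate peak were 46 in replicate 1 and 35 in replicate 2, against 113 and 73 in peaks found in both. Median input reads were 21 and 18, against 46 and 34. The ratio of ChIP to input reads, not scaled for library size, had medians of 2.12 and 1.89 in one-replicate peaks and 2.68 and 2.40 in the others. One-replicate peaks were also shorter, with medians of 916 bp and 846 bp, against 2079 bp and 1519.5 bp. Input reads per kb were close in all classes, at 22.7 and 21.4 against 22.6 and 22.6. A p-value deposited by the authors exceeded 0.05 in 57.3% and 51.7% of one-replicate peaks, against 16.5% and 15.4%, and was at most 0.001 in 6.74% and 6.01%, against 48.0% and 50.6%.

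Low peaks were more often in a single replicate. In replicate 1, 74.9% of promoter peaks of height 13 or 14 were in that replicate only, 62.0% of those of 15 to 17, 36.8% at 18 to 22, 18.9% at 23 to 29 and 3.29% (19 of 577) at 30 or more. The same heights in replicate 2 gave 22.7%, 11.5%, 5.12%, 1.32% and 0.514%, and heights of 11 and 12 gave 39.9%. Across 1861 pairs of peaks that overlapped 1 to 1, replicate 2 height was a median of 0.824 of replicate 1 height (quartiles 0.722 and 0.933). Divided by that ratio, the lowest height of the replicate 2 list becomes 13.4 on the replicate 1 scale, and 264 of the 1498 replicate 1 members (17.6%) lay below it. Only peaks listed in both replicates enter this ratio, so each pair had already passed the floor of the replicate 2 list. The ratio need not hold for the members, which have no replicate 2 height. The 17.6% is thus no measure of how many members the floor left out. How far list depth sets membership was not tested.

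Few members were close to the edge of the rule. Only 5 members of replicate 1 and 4 of replicate 2 had a peak of the other replicate within 1000 bp, with median heights of 16 and 12.5, and 62 and 23 had one within 10000 bp. The median distance to the nearest peak of the other replicate was 195441 bp and 135240 bp. Just inside the other class, 0 peaks of replicate 1 and 1 peak of replicate 2 overlapped their partner by at most 100 bp.

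The highest replicate 1 members lay at promoters of genes with varied functions. Micu2, a regulator of mitochondrial calcium uptake, had a height of 63 with 101 ChIP and 17 input reads. Dhx40, a DEAH-box RNA helicase, had a height of 44 with 88 and 24 reads. The promoter shared by Eif1ad and Banf1, a chromatin and nuclear envelope gene, had 41 with 69 and 15 reads. The next were Slc7a9, a subunit of a cystine transporter, at 40, Capn10, a calpain protease, at 39, Gm26839 at 38, and Fra10ac1 and the piRNA pathway gene Tdrd1 at 36. None of these 8 met a peak of either mark.

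In replicate 2 the highest member was Rn45s, the ribosomal RNA repeat, at a height of 202. It held 3876 ChIP and 3301 input reads, a ratio of 1.17, and since the repeat has many copies its reads cannot be placed on 1 locus. Rn45s met an H2AK119ub peak of that mark's replicate 1, with a ratio of 1.07, and is counted among the members with H2AK119ub. None of the other members named here met either mark. Atf6, a transcription factor of the endoplasmic reticulum stress response, followed at 32 with 65 and 51 reads. Adnp, a homeodomain chromatin protein, had 28 with 48 and 13 reads, and the promoter shared by Tatdn3 and the kinetochore gene Nsl1 had 26 with 45 and 18. Nuak2, an AMPK-related kinase, had 23, and Usp6nl, 2310001K24Rik and Fam8a1 had 22. Without Rn45s the greatest height in this class is 32.

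**Figure D2:**
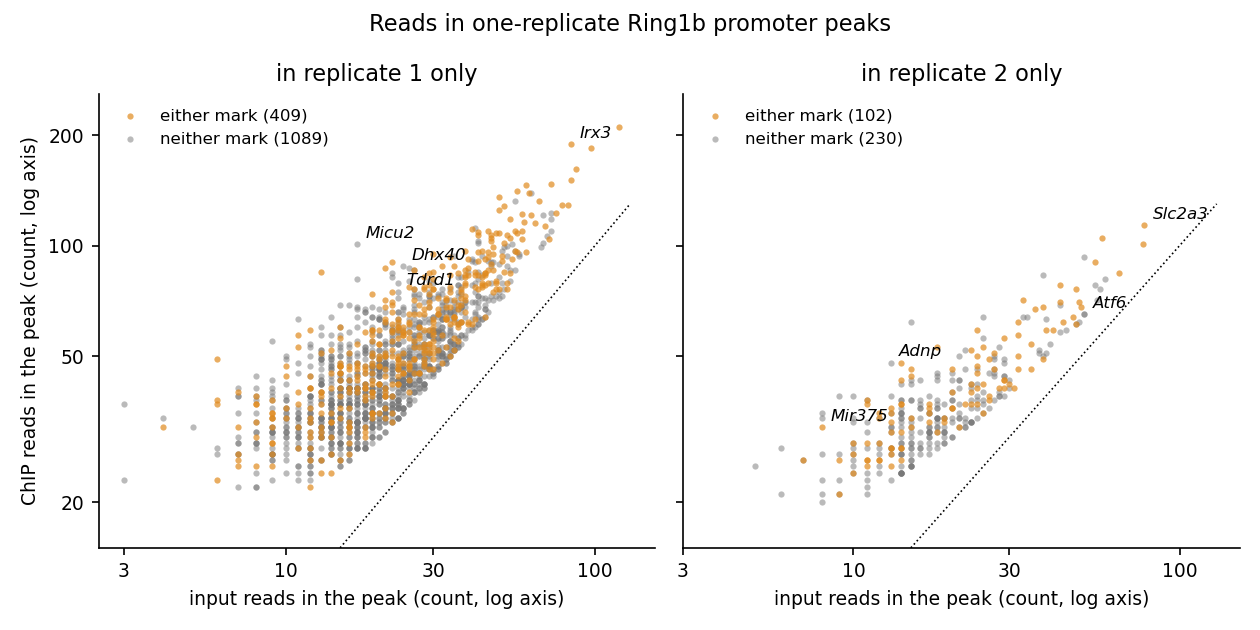
ChIP reads (vertical axis) against input reads (horizontal axis) in each one-replicate Ring1b promoter peak, as deposited counts on log axes, with the line of equal counts dotted and Rn45s (3876 and 3301 reads) left out. Orange points met an H2AK119ub or H3K27me3 peak and grey points met neither. The kinds overlap, but the replicate 1 member with the most reads, Brinp3 (211 ChIP and 120 input reads), met both marks. Micu2 had 101 ChIP and 17 input reads and met neither.

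The histone marks were not used to choose the peaks, and most one-replicate promoters had neither. An H2AK119ub peak of any replicate overlapped 324 of 1498 replicate 1 members (21.6%, 19.6% to 23.8%), against 61.7% (59.6% to 63.9%) of replicate 1 peaks found in both and 44.3% of all replicate 1 promoter peaks. H3K27me3 overlapped 279 members (18.6%, 16.7% to 20.7%), against 55.7% (53.5% to 57.9%) and 39.6% of all. Neither mark was met by 1089 members (72.7%, 70.4% to 74.9%), against 32.5% (30.5% to 34.7%) and 50.0% of all.

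The 333 replicate 2 members gave similar shares. H2AK119ub was met by 81 (24.3%, 20.03% to 29.2%), against 60.7% (58.5% to 62.8%) of replicate 2 peaks found in both and 55.4% of all replicate 2 promoter peaks. For H3K27me3 it was 72 members (21.6%, 17.5% to 26.4%), against 55.6% (53.4% to 57.8%) and 50.7% of all. Neither mark was met by 230 (69.1%, 63.9% to 73.8%), against 33.3% (31.3% to 35.4%) and 38.5% of all. Both marks together were met by 12.95% and 15.02% of members, against 50.0% and 49.6%. These Wilson intervals cover counting error only. With 2 libraries of a mark, an exact two-sided permutation test over samples could not give a p below 0.333, so none was run.

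The spread between mark replicates is shown by using each alone. With H2AK119ub replicate 1 alone, 12.6% of replicate 1 members and 11.7% of replicate 2 members met the mark, against 47.4% and 46.0% of peaks found in both. With H2AK119ub replicate 2 alone, the shares were 19.8% and 22.8%, against 59.7% and 58.5%. With H3K27me3 replicate 1 alone they were 18.5% and 21.6%, against 55.5% and 55.3%, and with replicate 2 alone 13.6% and 16.5%, against 49.0% and 49.1%. In each pairing of a Ring1b list with a mark list the members had the lower share, by more than the gap between mark replicates. The size of the H2AK119ub share rests on the library: without H2AK119ub replicate 2 it was 12.6% in replicate 1 members, against 21.6% with it, and 11.7% in replicate 2 members, against 24.3%.

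**Figure D3:**
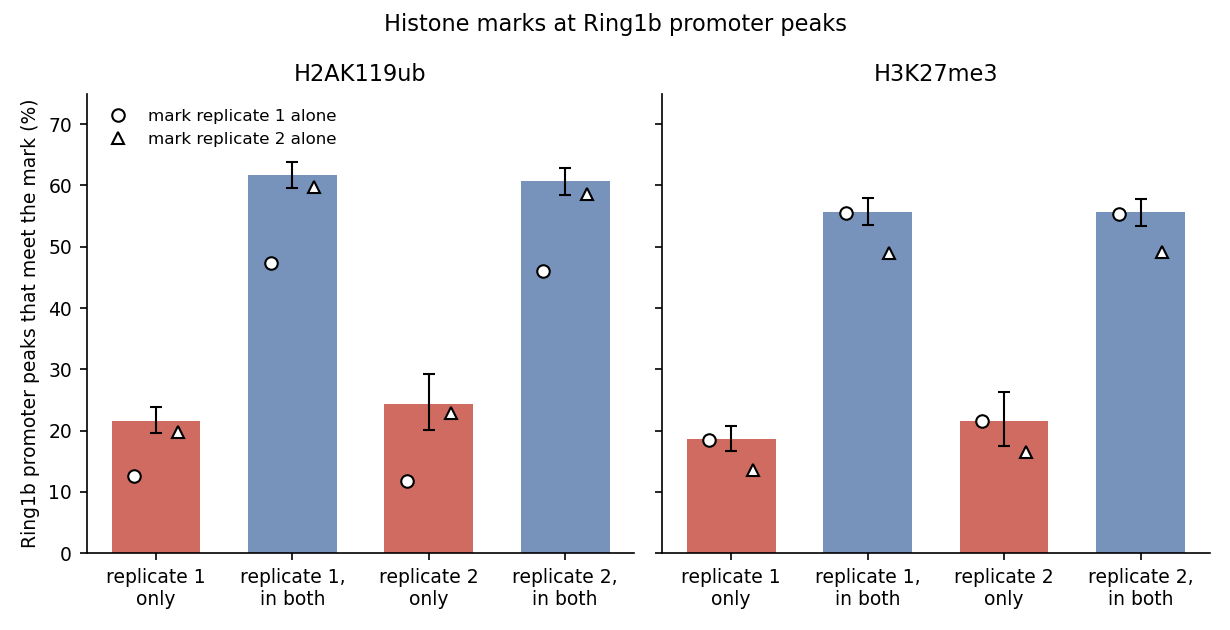
Share of Ring1b promoter peaks that meet a peak of H2AK119ub (left) or H3K27me3 (right), in percent. Bars count a peak of any mark replicate, whiskers are 95% Wilson intervals, circles and triangles use mark replicate 1 or 2 alone; the red one-replicate bars (18.6% to 24.3%) lie below the blue bars for peaks found in both (55.6% to 61.7%).

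The same counts can be given by mark, with no test. Of replicate 1 peaks with both marks, 16.6% (194 of 1172) were in that replicate only, as were 36.1% of those with H2AK119ub alone, 43.1% with H3K27me3 alone and 63.1% (1089 of 1726) with neither. In replicate 2 these shares were 4.87%, 12.4%, 15.7% and 26.0%.

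Among one-replicate peaks the share with a mark showed no steady rise with height. In replicate 1 members, H2AK119ub was met by 23.3% at heights of 13 and 14, 20.5% at 15 to 17, 19.7% at 18 to 22 and 27.7% (19.2% to 38.2%) at 23 to 29. Over the same heights the share in peaks found in both climbed through 39.4%, 45.9%, 55.1% and 63.2%, and reached 83.9% at 30 or more. H3K27me3 gave 20.3%, 19.3%, 14.8% and 20.5% in members, against 33.3%, 40.9%, 47.8% and 55.6%. In replicate 2 members the H2AK119ub shares were 25.6% at 11 and 12, 24.0% at 13 and 14 and 29.4% at 15 to 17, against 37.9%, 45.5% and 52.4%. Of the 21 members at 18 to 22, 1 met H2AK119ub and 1 met H3K27me3 (4.76%, 0.846% to 22.7%, for each mark), against 63.0% for H2AK119ub and 53.0% for H3K27me3. Of the 100 highest members, 74 in replicate 1 and 68 in replicate 2 met neither mark. The height ranges, and the length ranges that follow, were chosen after the data had been seen.

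**Figure D4:**
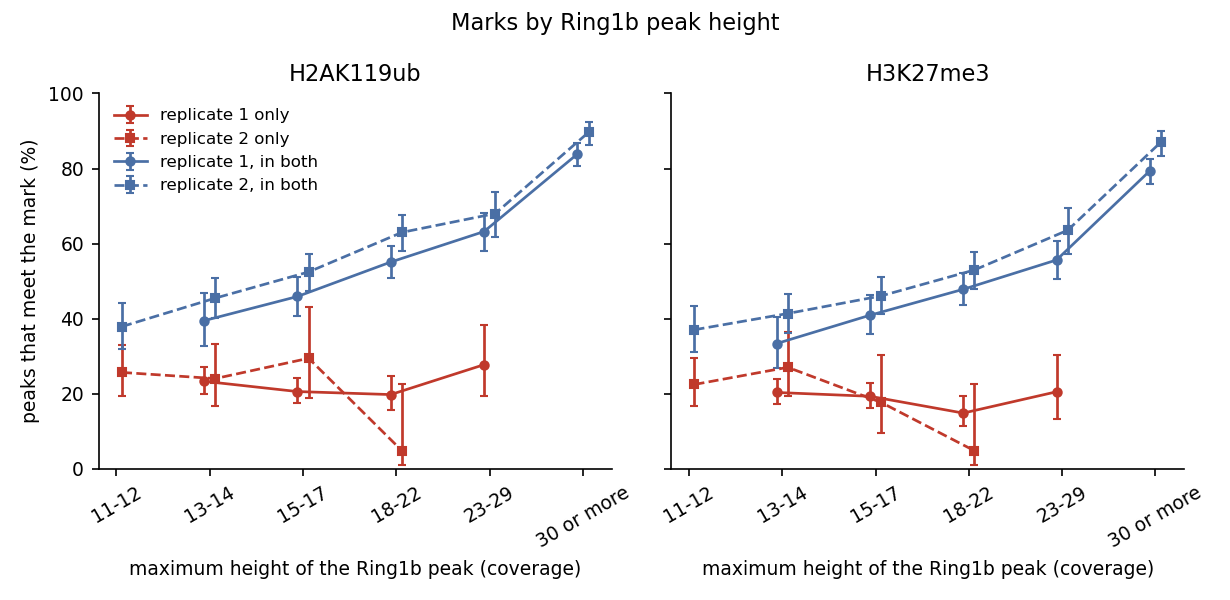
Share of Ring1b promoter peaks that meet H2AK119ub (left) or H3K27me3 (right), in percent, by range of maximum height (coverage), with 95% Wilson intervals; ranges under 20 peaks are not drawn. The blue lines (found in both) climb with height to 83.9% and 89.7% for H2AK119ub, while the red lines (one replicate only) stay at or below 29.4%.

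The share rose with length. In replicate 1 members H2AK119ub was met by 11.4% of peaks under 750 bp, 16.95% from 750 to under 1000 bp, 22.9% from 1000 to under 1500 bp and 45.5% from 1500 bp, against 19.6%, 30.9%, 33.1% and 78.1%. In replicate 2 members the shares were 13.8%, 20.7%, 35.9% and 42.5%, against 28.6%, 32.9%, 46.0% and 83.5%. H3K27me3 under 750 bp was met by 10.2% of 501 replicate 1 members, against 14.5%. In replicate 2 it was met by 14.6% of 123 members, against 22.8%. From 1500 bp the H3K27me3 shares were 40.5% against 72.0%, and 35% against 80%. The H3K27me3 gap over all lengths, 18.6% against 55.7% in replicate 1, was thus wider than that under 750 bp. A longer peak has more room for an overlap, and how far this sets the shares was not tested. Counted over the middle 500 bp of each peak only, H2AK119ub was met by 17.9% of replicate 1 members and 22.2% of replicate 2 members, against 54.9% and 55.2%. H3K27me3 was met there by 17.6% and 21.0%, against 53.4% and 53.6%.

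Where members did meet a mark, the mark peaks were shorter than those at peaks found in both but had similar ratios. In H3K27me3 replicate 1, the mark peaks at replicate 1 members had a median length of 5330 bp and a median ratio of ChIP to input reads of 10.5, against 8524 bp and 12.4. In H3K27me3 replicate 2 these were 3881 bp and 4.98, against 6443 bp and 5.38. In H2AK119ub replicate 1 they were 1696.5 bp and 1.94, against 2865 bp and 1.89, and in replicate 2 3369 bp and 2.102, against 4999 bp and 2.15. The Ring1b ratio of members with both marks had a median of 2.25 in replicate 1 and 1.93 in replicate 2, against 2.09 and 1.89 in members with neither.

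The highest members with both marks were lower than the highest members overall. In replicate 1 they were Igsf11, an immunoglobulin-family adhesion gene, at a height of 30, the homeobox gene Irx3 at 29, the long noncoding RNA Rmst at 28, the lactosylceramide synthase gene B4galt6 at 27 and the chitin receptor gene Fibcd1 at 25. Irx3 held 189 ChIP and 84 input reads, lay 1539 bp from the nearest replicate 2 peak, and met H3K27me3 peaks with ratios of 13.3 and 4.00 in the mark's replicates 1 and 2. In replicate 2 they were Kcng2, a potassium channel subunit, Gdf10, a ligand of the BMP family, and Bean1 at 17, and Apba1 and the calcium channel gene Cacna1h at 15.

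The members named 1651 genes in replicate 1 and 366 in replicate 2, of which 1551 and 335 were protein-coding. At 1850 of 20661 autosomal protein-coding genes (8.95%) the only Ring1b promoter peaks were one-replicate peaks, and at 1982 (9.59%) a peak found in both lay at the promoter. These shares are the background for the lists that follow, except that of microRNA genes, which do not code for protein. For each list the members named only by one-replicate peaks are given, then those with a peak found in both. The lists were made with earlier results in view and carry no test.

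In 5 lists of genes for core cell functions, more genes were at one-replicate peaks than at peaks found in both. Of 85 ribosomal protein genes, 9 were at one-replicate peaks and 4 at peaks found in both, among them Rpl19 and Rpl21 in replicate 1 (height 19 each) and Rpl32 and Rpl37 in replicate 2 (16 each). Of 78 mitochondrial ribosomal protein genes it was 7 and 3, led by Mrpl13 at 34, and of 35 genes for subunits of respiratory complex I it was 5 and 2, led by Ndufb3 at 34. The symbols that begin with Eif, mostly translation initiation factors, gave 9 and 2 of 54, led by Eif1ad at 41 and the helicase gene Eif4a2 at 28. This list also holds Eif2ak3, a kinase, and Eif4ebp1, an inhibitor of initiation, and a single peak named the near-identical pair Eif3j1 and Eif3j2, whose reads cannot be told apart. DNA replication and cell cycle genes gave 9 and 4 of 63, among them Mcm4, a helicase subunit, Pole, a polymerase, and E2f7, a repressor. None of the replicate 1 peaks at the ribosomal (5), mitochondrial ribosomal (6), complex I (5) or initiation factor (7) genes met either mark, and 72.7% of all replicate 1 members met neither. Of the 9 replicate 1 peaks at the DNA replication and cell cycle genes, 2 met H2AK119ub, both at Ccnd1, and 7 met neither mark. The share of each of these lists at one-replicate peaks, from 8.97% to 16.7%, is near or above the 8.95% of all genes. Other lists of core functions, given further below, had lower shares: 5.26% of proteasome subunit genes and 2.67% of histone genes. The interval of each list held 8.95%, except that for initiation factors it began at 9.02%. That count takes the pair named by a single peak as 2 genes, so the exception is not read as a difference, and no list was tested.

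Cell adhesion and cytoskeleton genes had 13 of 49 members at one-replicate peaks (26.5%, 16.2% to 40.3%) and 7 at peaks found in both. Among them were Cdh1 and Cdh3, the epithelial cadherins, the desmosomal plakophilins Pkp1 and Pkp4, the tight junction protein Tjp3, and the cytoskeleton genes Actg1, Pfn1 and Tpm1. Their 12 replicate 1 peaks had a median height of 15, and all replicate 1 members had a median of 15 and an upper quartile of 18. Actg1, at a peak also annotated to Mir6935 and 0610009L18Rik, had 23 with 139 ChIP and 62 input reads. Tjp3 had 22 with 87 and 39, Pfn1, at a peak also annotated to Eno3, had 20 with 91 and 45, and Cdh1 had 14 with 50 and 32. Of the 12 replicate 1 peaks, 11 met neither mark, as did 72.7% of all replicate 1 members, and Tjp3 met H2AK119ub. Cdh1 at a ratio of 1.56 is close to the lowest ratio of any replicate 1 member, 1.45.

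Polycomb genes themselves were among the members. Of 35 genes for PRC1 and PRC2 subunits, 10 (28.6%, 16.3% to 45.1%) were at one-replicate peaks and 9 at peaks found in both. In replicate 1 they were Aebp2 and Mtf2, accessory subunits of PRC2, at heights of 31 and 19, Suz12, a core subunit of PRC2, at 16, Pcgf6 and E2f6 of a variant PRC1 at 20 and 14, Rybp at 19, Pcgf2 at 14 and Wdr5 at 13. In replicate 2 they were Ezh2, the methyltransferase of PRC2, and Phc1 at 13 each. None of these 10 peaks met either mark. At the Polycomb genes, 6 of 9 replicate 1 peaks found in both met H2AK119ub, near the 61.7% of all such peaks. In replicate 2 it was 5 of 9, beside 60.7% of all. Among all replicate 1 members, 72.7% met neither mark.

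Genes of the basal layer and its differentiation were among the members. Of 29 basal epidermis genes, 4 were at one-replicate peaks (13.8%, 5.50% to 30.6%, against 8.95% of all genes) and 8 at peaks found in both (27.6%, against 9.59% of all): Dst, Dlk2 and the transcription factor gene Tfap2a at a height of 15 each in replicate 1, and the integrin gene Itgb1 at 13 in replicate 2. The Dst peak, at a promoter it shares with Bend6, met both marks and the others met neither. Of 40 differentiation genes, 1 was at a one-replicate peak (2.50%, 0.443% to 12.9%) and 10 at peaks found in both (25%): the transcription factor gene Gata3, whose peak at 35, shared with 4930412O13Rik, held 132 ChIP and 66 input reads and met H2AK119ub. Of 7 cell cycle inhibitors, Cdkn1a and Cdkn1b were members, at 15 and 16, against 4 at peaks found in both.

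Regulators of other lineages were mostly found in both replicates. Neural regulators gave 2 of 60 at one-replicate peaks (3.33%, 0.919% to 11.4%), against 54 found in both. Endoderm regulators gave 0 of 23 (up to 14.3%), against 17, mesoderm and muscle regulators 3 of 48, against 36, and Hox genes 4 of 39, against 30. The 30 Hox genes are not 30 separate peaks: they were named by 8 replicate 1 and 13 replicate 2 peaks found in both. Signalling ligands gave 7 of 53, against 31, hair follicle genes 1 of 35, against 24, and Merkel cell genes 2 of 22, against 11. Olfactory receptor genes, silent in skin, gave 0 of 1111 (up to 0.345%), against 1.

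The lineage regulators at one-replicate peaks were low, and their marks varied. Lhx3 and Pou4f2, homeobox genes of neurons, had heights of 15 and 13 in replicate 1 with 162 and 116 ChIP reads, and both met H2AK119ub and H3K27me3. Mesp1 and Twist2, basic helix-loop-helix genes of mesoderm, had 15 and 13 and met both marks, and Sox5 at 15 met H3K27me3. None of the 4 Hox members met H3K27me3: Hoxc5 at 13 and, in replicate 2, Hoxb2 at 14 met H2AK119ub, while Hoxb3 at 14 and Hoxa2 at 13, whose peak is also annotated to Hoxaas2, met neither mark. Pou4f3, a homeobox gene of Merkel and hair cells, had 15 in replicate 2 and met both. Of the 6 replicate 1 peaks at signalling ligands, 5 met H2AK119ub and 3 met H3K27me3, with Wnt2b at 19, Gdf11 at 15 and Fgf2 at 14 meeting both and Bmp2 at 17 meeting neither. For comparison, the 51 replicate 1 peaks found in both at neural regulators had a median height of 103 and met H2AK119ub at 51 and H3K27me3 at 50.

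**Figure D5:**
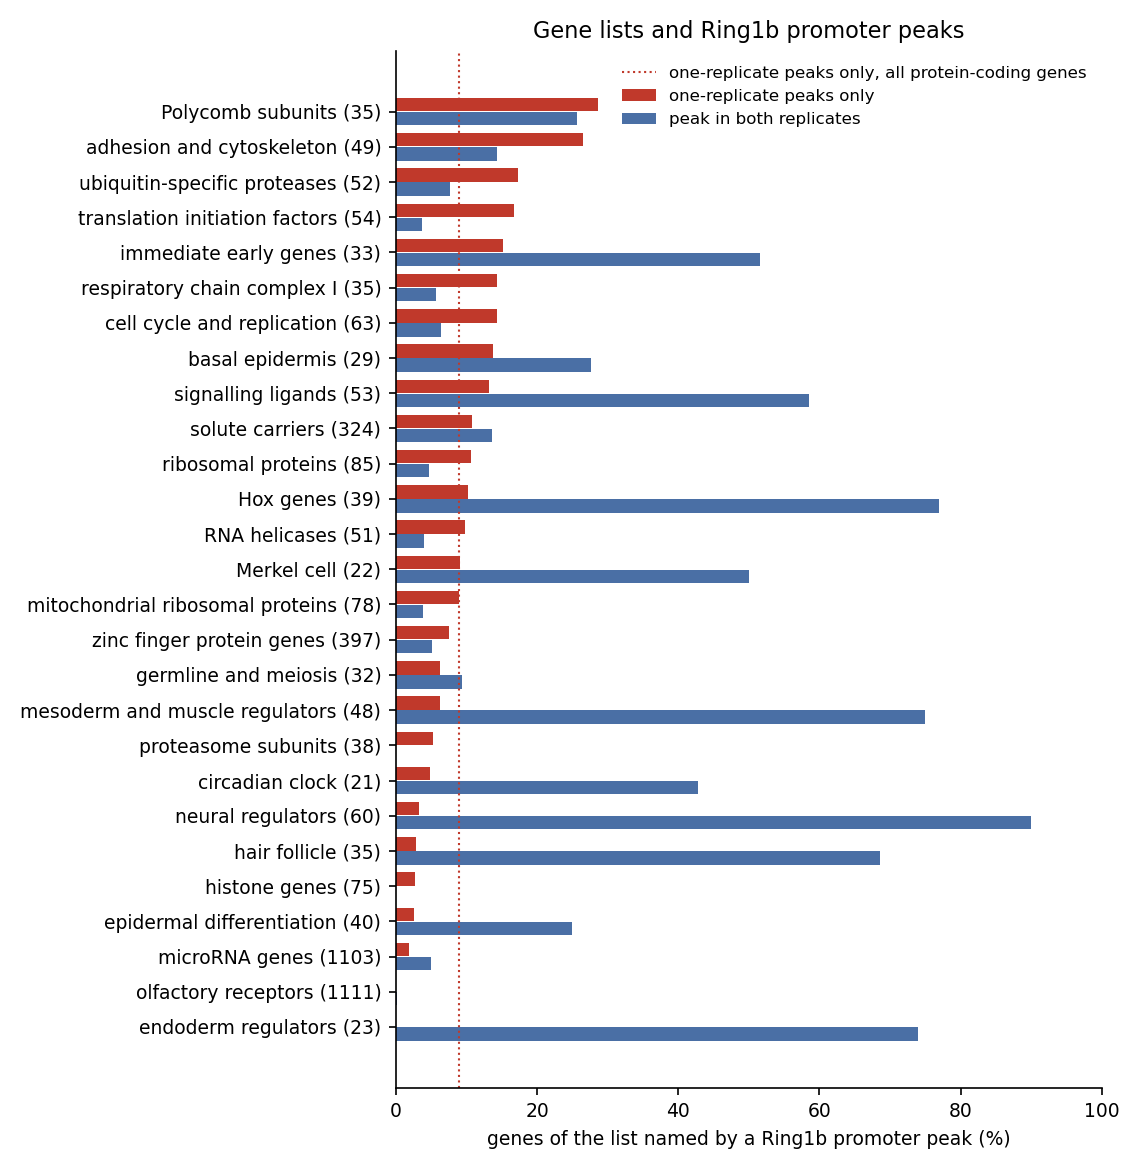
Share of each gene list (number of genes in parentheses; lists of at least 20 genes) named only by one-replicate Ring1b promoter peaks (red) or by a peak found in both replicates (blue), in percent. The dotted line is the 8.95% of all autosomal protein-coding genes named only by one-replicate peaks, and is no background for microRNA genes. The red bars reach at most 28.6%, while the blue bars for neural, Hox, mesoderm and endoderm regulators lie between 73.9% and 90%.

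Zinc finger genes gave 30 of 397 at one-replicate peaks, against 20, solute carrier genes 35 of 324, against 44, and symbols that begin with Usp, mostly ubiquitin-specific proteases, 9 of 52, against 4. The last list included Usp16, a deubiquitinase that acts on H2A, at a height of 17 in replicate 2, and Usp6nl, which by function is a regulator of Rab GTPases. Germline genes gave 2 of 32, Tdrd1 and Meiob, against 3. Immediate early genes gave 5 of 33, against 17, and circadian clock genes 1 of 21, Clock, against 9. Proteasome subunit genes gave 2 of 38 (5.26%, 1.46% to 17.3%) and histone genes 2 of 75 (2.67%, 0.734% to 9.21%), against 0 in each. The DEAD and DEAH RNA helicases gave 5 of 51, against 2.

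MicroRNA genes gave 20 of 1103 at one-replicate peaks, against 55, and the shares over protein-coding genes are no background for them. The 5 mature sequences below, from RefSeq on GRCm38.p6 with the seed (bases 2 to 8) in capitals, belong to members picked after their values were seen, for their known roles or shared seed. Capital letters in the first pair are the same, so miR-132-3p and miR-212-3p form 1 seed group. For Mir375 only the miR-375-5p strand was available here, and the known roles of the gene are not credited to that strand or its seed.
mmu-miR-132-3p (chr11:75173723-75173744, plus strand): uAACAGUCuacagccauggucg
mmu-miR-212-3p (chr11:75173443-75173464, plus strand): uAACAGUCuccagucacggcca
mmu-let-7i-5p (chr10:122985698-122985719, minus strand): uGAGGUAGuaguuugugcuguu
mmu-miR-203-3p (chr12:112130927-112130948, plus strand): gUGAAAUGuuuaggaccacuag
mmu-miR-375-5p (chr1:74900696-74900717, minus strand): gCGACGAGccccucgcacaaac

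A single replicate 1 peak of height 16, with 72 ChIP and 37 input reads, covered the promoter annotated to Mir132, Mir212 and the tumour suppressor gene Hic1, and it met both marks. The Mirlet7i peak, of the let-7 family, also had 16 with 50 and 24 reads and met neither mark. In replicate 2, Mir203, a microRNA of differentiating epidermis, had a height of 11 with 38 and 27 reads, a ratio of 1.41. Mir375 had 15 with 32 and 8 reads, a ratio of 4.00, and met H2AK119ub.

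The members were spread over all autosomes. Per chromosome, the share of promoter peaks in replicate 1 only ran from 35.7% (chromosome 18) to 52.7% (chromosome 17), and in replicate 2 only from 7.79% to 20.8% on the same pair. Of the members, 10.5% in replicate 1 and 9.61% in replicate 2 named 2 or more genes, against 12.4% and 11.7%. At 29 genes of replicate 1 members and 6 of replicate 2 members, another promoter peak was found in both replicates. At 4 genes, Dido1, Dlc1, Hnrnpf and Xkr6, each replicate had a peak of its own that did not overlap the other's. The gap was 845 bp at Xkr6 (heights 15 in replicate 1 and 21 in replicate 2), 7643 bp at Dido1, 8912 bp at Hnrnpf and 118074 bp at Dlc1.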

How the data were processed

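Chromatin immunoprecipitation sequencing of 6 samples (Ring1b, H2AK119ub and H3K27me3, 2 replicates each) was analysed out of 14 samples in 7 groups, grouped by their titles; the other 8 were not analysed here. Build mm10 is listed in the submitters' processing notes, beside MACS2 2.1.0, SAMtools 0.1.19, Bowtie2 2.2.3, Bowtie 1.1.1 and Trim Galore 0.4.1. Which of them made the lists, the test behind the p-value and any scaling are not stated in the sources used here. Per the file headers, each row of the authors' lists holds a maximum height (a coverage signal), ChIP and input read counts per strand, a p-value, a location class and gene names. Peaks were called per replicate. All 1498 and 333 members stood with the same values in the deposited Ring1b union list.

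Coordinates were used as printed, as closed intervals. Ring1b peaks of chromosomes 1 to 19 with class promoter were split by an overlap of 1 bp with any peak of the other replicate (Python 3.11.15, pandas 2.3.3, SciPy 1.17.1). Overlap and interval functions were tested on simulated data. Ratios are deposited ChIP over input counts. Of 4212 gene names, 4111 matched a current RefSeq symbol, 92 a synonym and 9 none. Named genes were, by height, the 8 highest of each class, the 5 highest with both marks and with neither, up to 4 per gene list and class, and genes with a peak of their own in each replicate; other names in the text were given as members of a list or, where said, picked after seeing values. All 28 gene lists, the members and the rules were chosen with earlier results of these data known. No test was run, since the peaks were chosen on these lists and each group has 2 samples.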

Additional observations from a re-analysis of the deposited data

How the results depend on the processing

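In all 36 alternative comparisons of a mark's share, the members' share minus that of peaks found in both ran from -55.9 to -29.2 percentage points. None of these compared peaks of like length or height, and the classes were closer among short peaks. Under 750 bp, H3K27me3 was met by 10.2% of replicate 1 members, against 14.5%, and by 14.6% of replicate 2 members, against 22.8%. From 1500 bp it was 40.5% against 72.0%, and 35% against 80%. Their number moved with the p-value limit: with both lists kept to a p-value of at most 0.001, 226 peaks in replicate 1 and 193 in replicate 2 were in a single replicate, and 101 and 20 members had such a p-value themselves. Among these 101 and 20 members, H2AK119ub was met by 24.8% and 40% and H3K27me3 by 24.8% and 35%. Leaving out a mark replicate gave H2AK119ub shares of 12.6% to 19.8% in replicate 1 members and 11.7% to 22.8% in replicate 2 members, and H3K27me3 shares of 13.6% to 18.5% and 16.5% to 21.6%. Asking for both mark replicates gave 10.7% and 10.2% for H2AK119ub and 13.5% and 16.5% for H3K27me3. Mark peaks with a p-value of at most 0.001 gave 10.0% and 10.2% for H2AK119ub, a mark peak within 2000 bp gave 25.5% and 30.0%, and the middle 500 bp gave 17.9% in replicate 1 members. The cause of these shifts was not tested. Counting a peak within 1000 bp as found, asking that the overlap cover 50% of the shorter peak, adding chromosome X and taking all location classes left the numbers within 1.5 times. Adding 1 to both read counts moved the median ratio to 2.07 in replicate 1 and 1.84 in replicate 2. No paired analysis was possible because the results come from no test, so there was no fit to hold a replicate block. Heights near 13 and 11, the floors of the lists, and counts of 20 to 50 reads limit what a single replicate shows of any 1 promoter.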

Other observations

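Ring1b peaks outside promoters were in a single replicate about as often. In replicate 1 this held for 174 of the gene body peaks (44.4%), 132 distal peaks (41.9%) and 104 intergenic peaks (43.2%), and in replicate 2 for 43 (14.9%), 38 (14.96%) and 28 (16.7%). Their median heights were 15, 16 and 15 in replicate 1 and 13, 12.5 and 12.5 in replicate 2.

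The share of these peaks that met a mark was above that of the one-replicate promoter peaks. H3K27me3 was met by 42.5% of gene body, 43.2% of distal and 56.7% of intergenic one-replicate peaks of replicate 1, against 18.6% at promoters. In replicate 2 the shares were 37.2%, 55.3% and 60.7%, against 21.6%. H2AK119ub was met by 42.0%, 31.8% and 39.4% in replicate 1, against 21.6%, and by 39.5%, 39.5% and 35.7% in replicate 2, against 24.3%. The difference was not tested. On chromosome X, 12 of 38 promoter peaks of replicate 1 and 4 of 30 of replicate 2 were in a single replicate, and 5 and 3 of them met H3K27me3.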
